A study of Mus musculus with 8 samples.

Results

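The replication-dependent histone genes were taken as the protein-coding genes whose GENCODE M21 symbol starts with Hist1h, Hist2h, Hist3h or Hist4h. There were 67 of them among the 55414 genes counted, 6 for the linker histone H1, 18 for H2A, 18 for H2B, 12 for H3 and 13 for H4. The libraries came from spleen neutrophils, sorted as CD45+ CD11b+ Ly6G+ F4/80- cells after a positive selection for CD11b, of 4 WT and 4 Cxcr2-/- mice, 1 library per mouse. All 8 mice were 10 weeks old, on the FVB background and kept in a specific and opportunistic pathogen free (SOPF) facility. The Cxcr2-/- mice lack the chemokine receptor Cxcr2 in every cell, not only in neutrophils. The libraries were made after depletion of ribosomal RNA, which keeps RNA without a poly(A) tail. The comparison asks how histone RNA differs between the spleen neutrophils of both genotypes.

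Histones are the proteins that DNA is wound on. H2A, H2B, H3 and H4 form the core of the nucleosome and H1 sits on the linker DNA between nucleosomes. The replication-dependent genes are transcribed in S phase, when new DNA has to be packed, and their mRNAs end in a short stem-loop in place of a poly(A) tail. The protein Slbp binds this stem-loop. Replacement variants such as H3f3a and H3f3b are made outside S phase from ordinary polyadenylated mRNAs. Neutrophil precursors divide in the bone marrow, and in mice also in the spleen, while segmented neutrophils no longer divide.

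The genes lie in 4 places of the mouse genome (GRCm38). The Hist1 cluster, at chr13:21715763-23934851, holds 54 of them. Hist2, at chr3:96219865-96270132, holds 10, Hist3, at chr11:58948920-58956830, holds 2, and Hist4h4, at chr6:136801553-136804415, stands alone. The stem-loop of 16 bases was found in the 3′ end of the GENCODE M21 transcripts of 44 of the 67 genes, from 22 to 59 bases after the stop codon (median 32). For 13 of the other 23 genes the models end at the stop codon. The 6 stem-loops printed here show some forms of the sequence, which varies within classes as well as between them. The stem-loop is in capitals, with 5 bases of flank on each side.
Hist1h1c: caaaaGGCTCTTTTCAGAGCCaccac
Hist3h2a: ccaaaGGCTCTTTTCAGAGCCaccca
Hist1h2bb: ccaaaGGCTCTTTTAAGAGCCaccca
Hist1h3c: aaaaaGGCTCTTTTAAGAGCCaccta
Hist1h4f: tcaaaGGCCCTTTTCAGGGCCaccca
Hist1h4i: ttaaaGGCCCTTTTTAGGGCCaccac
All 11 H4 genes with a stem-loop have a stem that starts GGCCC or GGTCC. The 33 stem-loops of the other classes start GGCTC. In 10 of the 11 stem-loops of H2A genes, 8 of the 10 of H2B genes, 5 of the 8 of H3 genes and 3 of the 4 of H1 genes the 16 bases are those of Hist1h1c.

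Promoter windows from 250 bases before to 50 after the RefSeq transcript start (GRCm38.p6) were at hand for 62 genes, in 63 windows since Hist1h2be has 2. Those of Hist1h1b and Hist1h1c are shown because these H1 genes had the largest and the smallest difference between genotypes in their class, and those of Hist1h2bb and Hist1h4f because they hold the H2B and H4 motifs. Capitals mark matches, on either strand, to CCAAT, to TATAAA and to the octamer ATTTGCAT, in H1 promoters also to AAACACA and in H4 promoters to GGTCCG. None of these motifs contains another.
Hist1h1b promoter, chr13:21780576-21780875, minus strand: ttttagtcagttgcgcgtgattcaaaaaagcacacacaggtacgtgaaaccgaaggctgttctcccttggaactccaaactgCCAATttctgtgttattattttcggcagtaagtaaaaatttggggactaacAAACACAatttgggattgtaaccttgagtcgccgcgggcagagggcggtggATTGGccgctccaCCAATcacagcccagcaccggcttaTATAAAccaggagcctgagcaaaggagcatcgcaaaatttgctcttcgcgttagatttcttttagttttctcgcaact
Hist1h1c promoter, chr13:23738557-23738856, plus strand: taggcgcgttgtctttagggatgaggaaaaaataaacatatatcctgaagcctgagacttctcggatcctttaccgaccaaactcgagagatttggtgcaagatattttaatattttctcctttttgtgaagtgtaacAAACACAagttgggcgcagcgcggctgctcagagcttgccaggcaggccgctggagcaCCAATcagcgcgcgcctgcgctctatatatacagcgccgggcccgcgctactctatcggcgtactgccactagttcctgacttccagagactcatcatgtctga
Hist1h2bb promoter, chr13:23746484-23746783, plus strand: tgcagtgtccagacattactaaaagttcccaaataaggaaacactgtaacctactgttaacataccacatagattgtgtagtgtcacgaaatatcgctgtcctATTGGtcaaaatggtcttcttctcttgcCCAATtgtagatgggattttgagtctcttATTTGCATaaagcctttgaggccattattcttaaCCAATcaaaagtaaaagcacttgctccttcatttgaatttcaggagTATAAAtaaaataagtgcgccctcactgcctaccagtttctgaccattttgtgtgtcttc
Hist1h4f promoter, chr13:23551619-23551918, minus strand: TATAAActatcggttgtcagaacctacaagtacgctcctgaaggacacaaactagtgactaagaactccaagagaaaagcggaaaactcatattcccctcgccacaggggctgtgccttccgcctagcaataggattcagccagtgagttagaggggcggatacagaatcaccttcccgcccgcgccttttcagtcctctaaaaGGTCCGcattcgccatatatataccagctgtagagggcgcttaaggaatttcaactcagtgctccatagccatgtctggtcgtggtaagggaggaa
CCAAT was in all 6 H1, 18 H2A, 17 H2B and 10 H3 windows, in 3 of the 12 H4 windows, and in 37.41% of all 32851 RefSeq promoters. The octamer, which is bound by Oct factors, was in 7 of the 18 H2A and 7 of the 17 H2B windows, in none of the H1, H3 or H4 windows, and in 1.74% of all promoters. AAACACA was in 5 of the 6 H1 windows against 7.18% of all promoters, and GGTCCG in 11 of the 12 H4 windows against 8.25%. In 10 pairs of an H2A and an H2B gene that point away from each other, the windows share 220 to 279 bases, so that their matches are not independent.

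Cxcr2 itself went with the labels, at 1719 to 2252 CPM in WT and 12.9 to 20.7 CPM in Cxcr2-/- mice. CPM is the count of a gene scaled to 1000000 counts on genes, with library sizes adjusted by the TMM method. The libraries held from 34220182 to 46233555 counts on genes, and 60347 to 219735 of these lay on the 67 histone genes. Their share of each library's gene counts was 0.176% to 0.218% for WT mice, against 0.402% to 0.550% for Cxcr2-/- mice. Pairs that did not align uniquely, to which reads of identical gene copies belong, made up 8.23% to 11.2% of all pairs counted in WT and 10.4% to 13.3% in Cxcr2-/- libraries, while pairs on no gene made up 31.4% to 41.5% and 26.7% to 31.9%. The part of both in the results was not tested.

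Histone RNA was higher in Cxcr2-/- than in WT spleen neutrophils in every class. Of the 54 replication-dependent histone genes with enough counts to be tested, 47 rose and 1, Hist3h2a, fell. Over all 16778 genes tested, 15.7% rose and 15.7% fell by the same rule. It asked for a Benjamini-Hochberg adjusted p under 0.05 by edgeR's quasi-likelihood test, together with a change of 1.5-fold or more. With upper-quartile in place of TMM normalization, 1975 of all genes rose and 3227 fell, against 2628 and 2628, while 47 histone genes still rose. The median log2 fold change (Cxcr2-/- over WT) of the 54 histone genes was 1.82, or 3.54-fold, and that of all genes tested was 0.01. Of the 47 genes that rose, 44 rose at least 2-fold and 15 at least 4-fold. In 48 of the 54 genes every Cxcr2-/- mouse was above every WT mouse, an order found in 22.5% of all genes tested, and in 1, Hist3h2a, every Cxcr2-/- mouse was below, as in 19.1% of all genes. A gene that passed the filter on low counts through only 1 group would have had to differ, but 53 of the histone genes had at least 10 counts in each of the 8 libraries, and 47 of these 53 rose. In bulk RNA, a larger share of cells that make a transcript and more of it per cell cannot be told apart.

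**Figure D1:**
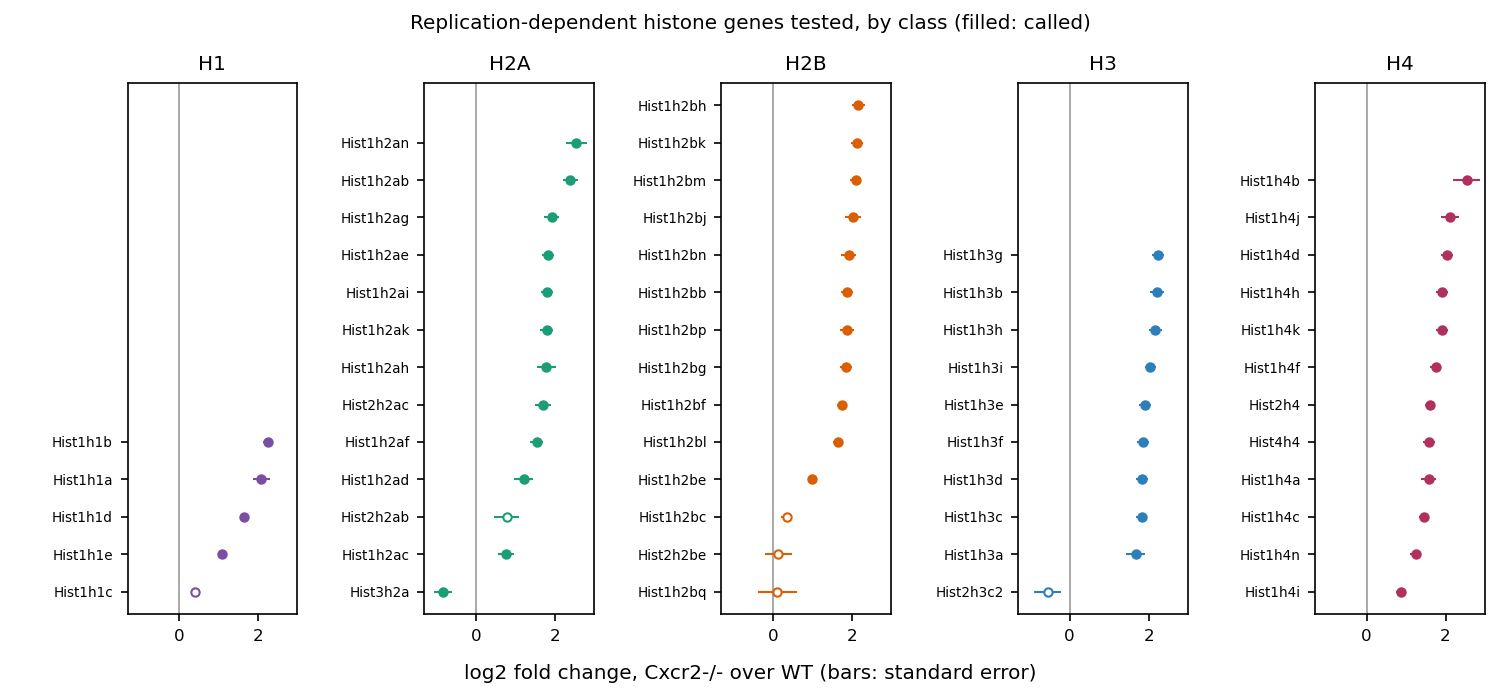
Log2 fold change, Cxcr2-/- over WT, of the 54 replication-dependent histone genes tested, 1 panel per class, with the standard error of the fit as bars. Filled points are genes called by the test and the 1.5-fold threshold. Points lie between 1.5 and 2.6 for 40 of the 54 genes, and only Hist3h2a and Hist2h3c2 lie under 0.

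The log2 fold changes of the H1 genes ranged from 0.42 to 2.26, with a median of 1.65. These linker histone subtypes share a globular domain and differ in their tails. Of the 6, 5 were tested, and 4 of these rose. Hist1h1b (chr13:21779883-21780625) was at 28.5, 25.0, 30.4 and 22.2 CPM in WT mice 1 to 4 and at 111, 116, 146 and 135 CPM in Cxcr2-/- mice 1 to 4. All 4 Cxcr2-/- mice stood far above the 4 WT mice, a 4.79-fold rise (log2 fold change 2.26, with a standard error, SE, of 0.12, edgeR adjusted p = 1.04e-07). Hist1h1e, at chr13:23620629-23622558, was at 277, 256, 289 and 269 CPM in the WT and at 607, 557, 647 and 521 CPM in the Cxcr2-/- mice. It rose 2.14-fold (log2 fold change 1.10, SE 0.10), again without overlap. This gene shares exon sequence on the same strand with Hist1h2be in GENCODE M21, where reads cannot be assigned to either.

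Hist1h1c (chr13:23738808-23740367), the H1 gene with the most RNA per length in both genotypes, was at 601, 492, 613 and 606 CPM in WT mice 1 to 4. In Cxcr2-/- mice 1 to 4 it was at 823, 707, 832 and 734 CPM. The groups did not overlap, but the log2 fold change of 0.42 (SE 0.11, edgeR adjusted p = 0.00688) is a 1.34-fold difference, which is under the 1.5-fold threshold, so that the gene was not called. Hist1h1d and Hist1h1a, the remaining H1 genes tested, rose from 80.2 ± 9.19 to 251 ± 15.8 CPM and from 6.41 ± 1.58 to 27.3 ± 7.41 CPM, with log2 fold changes of 1.65 and 2.09. Hist1h1t, the testis form, had at most 11 counts in any library and was not tested.

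Hist1h1c made up less of the H1 RNA in Cxcr2-/- than in WT mice. Its share of the summed H1 CPM was 60.4%, 57.2%, 59.5% and 62.5% in WT mice 1 to 4 and 45.4%, 43.1%, 43.1% and 44.0% in Cxcr2-/- mice 1 to 4. The share of Hist1h1b went from 2.75% ± 0.313 (SD, n = 4) in WT to 7.21% ± 0.824 in Cxcr2-/- mice, and that of Hist1h1d from 8.35% ± 1.06 to 14.3% ± 0.359. These are shares of reads and not of molecules, since the Hist1h1d model is 7425 bases long and that of Hist1h1b 743.

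**Figure D2:**
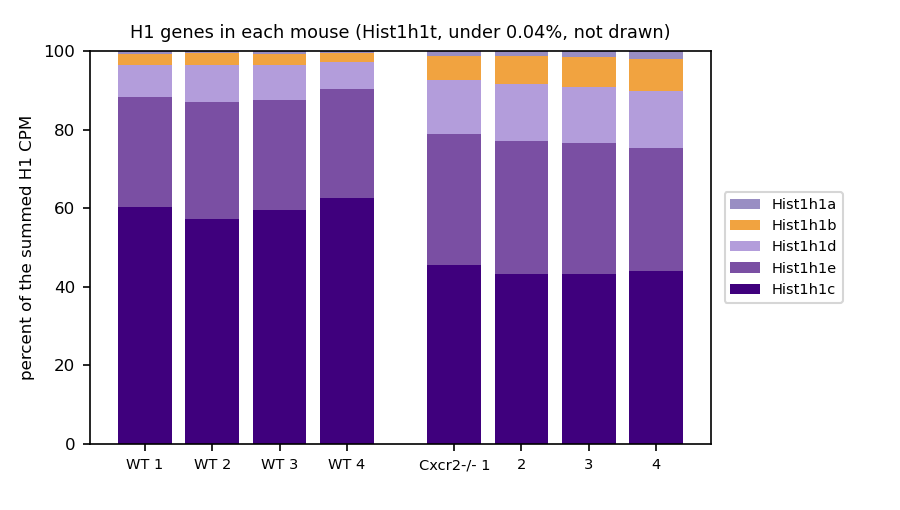
Percent of the summed H1 CPM (vertical axis) that each H1 gene took in each mouse, stacked, with the 4 WT mice at the left and the 4 Cxcr2-/- mice at the right. Hist1h1c takes 57.2% to 62.5% in WT and 43.1% to 45.4% in Cxcr2-/- mice.

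H2A genes rose in 11 of 13 tested, with a median log2 fold change of 1.79 over the class. Most encode nearly the same protein of the nucleosome core. Hist1h2ak (chr13:21753435-21753827), the H2A gene with the most RNA per length, was at 25.8, 24.0, 31.5 and 15.6 CPM in the WT and at 92.9, 74.9, 86.5 and 84.6 CPM in the Cxcr2-/- mice. WT mouse 4 was the lowest, and the groups were far apart, with a log2 fold change of 1.8 (SE 0.17, edgeR adjusted p = 4.49e-06). Hist1h2af and Hist1h2ai, next in level per length, rose with log2 fold changes of 1.54 and 1.81. Only 41.6% and 13.9% of the 150-base windows of their transcripts occur in no other gene's transcript, so that the split of reads between them and their near-identical copies is uncertain. The largest rise of the class was that of Hist1h2an (chr13:21786826-21787218), a gene with few reads, from 0.476 ± 0.133 CPM in WT to 2.82 ± 0.324 CPM (SD, n = 4 each) in Cxcr2-/- mice, a log2 fold change of 2.55 (SE 0.26). Of its windows 27.5% were its own. Hist1h2ab, with 54.9% of windows to itself, rose nearly as far, with a log2 fold change of 2.40. It was at 7.30, 5.37, 5.21 and 3.47 CPM in the WT and at 27.4, 25.8, 33.9 and 26.4 CPM in the Cxcr2-/- mice, so that each Cxcr2-/- mouse was more than 3-fold above the highest WT mouse.

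The other H2A genes that rose were Hist1h2ag, Hist1h2ae, Hist1h2ah, Hist2h2ac, Hist1h2ad and Hist1h2ac, in the order of their log2 fold changes from 1.92 down to 0.77. Of the windows of Hist1h2ag, Hist1h2ah and Hist1h2ad, 34.5%, 15.2% and 40.7% were their own. Hist2h2ac, the only H2A gene of the Hist2 cluster that rose, was at 2.14 to 4.62 CPM in WT and at 10.6 to 12.1 CPM in Cxcr2-/- mice. The smallest rise, that of Hist1h2ac, was from 4.57 ± 0.531 to 7.78 ± 2.05 CPM, and the lowest Cxcr2-/- mouse, at 5.37 CPM, was barely above the highest WT mouse, at 5.33 CPM.

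Hist3h2a, at chr11:58954685-58956830, went the other way. It was at 1.68, 2.01, 1.66 and 1.74 CPM in WT mice 1 to 4 and at 0.784, 1.02, 1.25 and 0.924 CPM in Cxcr2-/- mice 1 to 4. Every Cxcr2-/- mouse was below every WT mouse, and the gene fell by 0.83 on the log2 scale (SE 0.23, edgeR adjusted p = 0.0118). Its exons overlap those of Trim17 on the same strand in GENCODE M21. Without the genes that share an exon on the same strand, no histone gene fell. Hist2h2ab was the H2A gene not called, with a log2 fold change of 0.78 and an adjusted p of 0.0650 by edgeR. It was called without Cxcr2-/- mouse 1, its lowest mouse of that genotype. Of its windows 47.5% were its own.

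H2B, the partner of H2A, held 11 genes that rose of 14 tested (median log2 fold change 1.87) and, with 3, the most genes that were not called. Hist1h2bl (chr13:21715763-21716143) was at 32.4, 31.1, 36.2 and 25.6 CPM in WT mice 1 to 4. It was at 103, 83.3, 117 and 90.4 CPM in Cxcr2-/- mice 1 to 4, a log2 fold change of 1.65 (SE 0.13, edgeR adjusted p = 1.12e-06) without overlap between the groups. Hist1h2bb and Hist1h2bn, next in level per length as a mean over the 8 libraries, rose with log2 fold changes of 1.89 and 1.93. Hist1h2bh had the largest rise, from 13.5 ± 2.05 to 60.6 ± 13.5 CPM (log2 fold change 2.17, SE 0.16). Hist1h2bk, Hist1h2bm and Hist1h2bj came close behind, with log2 fold changes of 2.13, 2.10 and 2.04, followed by Hist1h2bp, Hist1h2bg and Hist1h2bf with 1.89, 1.86 and 1.75. Of the windows of Hist1h2bk 39.1% were its own. Hist1h2bb was at 30.4, 27.6, 34.1 and 26.3 CPM in the WT and at 127, 97.8, 131 and 81.5 CPM in the Cxcr2-/- mice. The Cxcr2-/- mice were spread more widely than the WT mice, and the lowest, mouse 4, was still more than 2-fold above every WT mouse.

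The 3 H2B genes not called, which are named because of their values, were Hist1h2bc, Hist2h2be and Hist1h2bq. Hist1h2bc (chr13:23684199-23692908) was at 41.1, 31.4, 37.8 and 41.2 CPM in the WT and at 46, 39.2, 63.1 and 45.6 CPM in the Cxcr2-/- mice. The groups overlap, with Cxcr2-/- mouse 3 alone well above the rest, and the log2 fold change was 0.36 (SE 0.14, edgeR adjusted p = 0.0555). Hist1h2bc took 12.6% to 17.3% of the summed H2B CPM in WT and 5.81% to 6.70% in Cxcr2-/- mice. Hist2h2be and Hist1h2bq were under 1 CPM in every library, with log2 fold changes of 0.14 and 0.12 and standard errors of 0.34 and 0.50, which leaves room for a change in either direction. Hist1h2be rose 2-fold, less than most of its class.

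H3, the histone with the best known tail modifications, had 9 genes that rose of 10 tested (median log2 fold change 1.89). Hist1h3c, at chr13:23744973-23745602, was at 55.3, 51.1, 60.6 and 39.8 CPM in the WT and at 193, 161, 216 and 167 CPM in the Cxcr2-/- mice. No mouse of one genotype came near the other, and the log2 fold change was 1.83 (SE 0.14, edgeR adjusted p = 8.25e-07). The other 8 genes that rose lie close together, from 1.67 for Hist1h3a to 2.23 for Hist1h3g on the log2 scale, with Hist1h3b at 2.21, Hist1h3h at 2.17, Hist1h3i at 2.04 and Hist1h3e at 1.91. Hist1h3g was at 9.31, 5.85, 7.46 and 6.25 CPM in the WT and at 34.7, 28.8, 38.3 and 33.4 CPM in the Cxcr2-/- mice, more than 3-fold apart at the nearest mice. Hist1h3h had only 9.5% of its windows to itself, and Hist1h3i 47.3%. Hist2h3c2, from the Hist2 cluster, averaged 0.632 ± 0.179 CPM in the 4 WT mice against 0.426 ± 0.114 CPM in the 4 Cxcr2-/- mice, with overlap, and its log2 fold change of -0.56 did not pass (edgeR adjusted p = 0.218). Of its windows 40.6% were its own.

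In the H4 class all 12 genes tested rose (median log2 fold change 1.68). Their products are the same protein in nearly all cases, so the genes differ as sources of mRNA. Hist1h4f, at chr13:23551258-23551648, had the most RNA per length of the class. It was at 65.0, 60.6, 70.6 and 49.9 CPM in the WT and at 234, 171, 246 and 177 CPM in the Cxcr2-/- mice, a log2 fold change of 1.75 (SE 0.14, edgeR adjusted p = 1.69e-06). The lowest Cxcr2-/- mouse, mouse 2, was more than 2-fold above the highest WT mouse. Hist1h4k and Hist1h4h, next in level, rose with log2 fold changes of 1.90 and 1.92, and Hist1h4j rose with 2.11. Hist1h4d, whose model takes the most H4 reads, was at 81.7, 70.2, 81.8 and 57.0 CPM in the WT and at 324, 240, 371 and 256 CPM in the Cxcr2-/- mice. Its share of the summed H4 CPM was 15.9% to 17.2% in WT and 19.9% to 21.7% in Cxcr2-/- mice. Hist1h4b, with few reads, had the largest rise of the class, from 0.513 ± 0.241 to 3.0 ± 0.812 CPM (log2 fold change 2.54, SE 0.34), and Hist1h4i the smallest, from 36.9 ± 3.19 to 66.8 ± 8.03 CPM (log2 fold change 0.86, SE 0.11). Hist1h4n, Hist1h4c and Hist1h4a were also toward the lower end, with log2 fold changes of 1.24, 1.45 and 1.57. Of the windows of Hist1h4b, Hist1h4k and Hist1h4n, 36.7%, 46.6% and 22.8% were their own, so that their split of reads is uncertain too. The form of the stem-loop printed for Hist1h4i occurs in 2 genes, Hist1h4i and Hist2h4. The H4 genes outside the Hist1 cluster, Hist2h4 and Hist4h4, rose with log2 fold changes of 1.61 and 1.58, from 70.2 ± 9.77 to 215 ± 29.2 CPM and from 46 ± 6.13 to 137 ± 29.8 CPM.

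Summed over its genes, each class was higher in every Cxcr2-/- than in every WT mouse. H1 RNA was at 996, 861, 1031 and 971 CPM in WT mice 1 to 4 and at 1811, 1640, 1931 and 1668 CPM in Cxcr2-/- mice 1 to 4. H4 RNA was at 476, 421, 491 and 359 CPM in the WT and at 1508, 1159, 1710 and 1288 CPM in the Cxcr2-/- mice. The ratio of the group means was 1.83 for H1, 3.35 for H2A, 2.90 for H2B, 3.79 for H3 and 3.24 for H4. In these sums genes with more reads weigh more. Hist2h2aa1, Hist2h2aa2, Hist2h2bb, Hist2h3b and Hist2h3c1, which have no window of their own, had no counts and add nothing to the sums. The H2A sum leaves out Hist1h2al, annotated as a pseudogene, which averaged 70.0 CPM in WT and 166 CPM in Cxcr2-/- mice. The summed H2A genes averaged 68.8 and 231 CPM. The ratios and shares given here are those of reads counted on the 67 genes and may not be those of each whole class. The median log2 fold change over tested genes was 1.65 for H1 and 1.68 for H4. H1 genes, with Hist1h1c and Hist1h1e in front, took 49.0% to 55.6% of all CPM on the 67 genes in WT and 34.6% to 39.3% in Cxcr2-/- mice. The share of H3 was 7.31% to 9.06% in WT and 12.5% to 13.3% in Cxcr2-/- mice, and that of H4 20.6% to 24.0% and 27.8% to 30.6%.

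**Figure D3:**
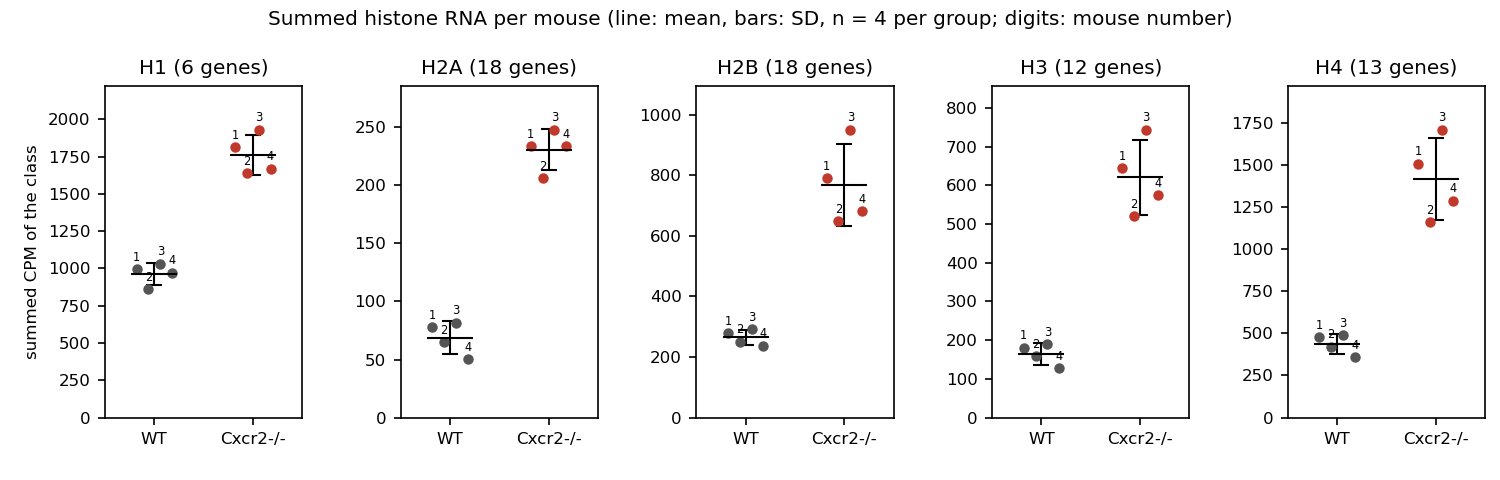
Summed CPM of each histone class (vertical axis, from 0) in each of the 4 WT and 4 Cxcr2-/- mice, with the mean as a line and the SD as bars. In all 5 classes the lowest Cxcr2-/- mouse lies above the highest WT mouse, and Cxcr2-/- mouse 3 is the highest.

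The mice of a group differed in the same order for many genes. Of the 54 genes tested, 39 had their lowest WT value in mouse 4 and 32 their highest in mouse 3. Among the Cxcr2-/- mice, 42 had their lowest value in mouse 2 and 43 their highest in mouse 3. Within a genotype, the summed CPM of the 67 genes went from 1746 to 2085 in WT and from 4174 to 5585 in Cxcr2-/- mice.

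The order of the genes by level was much the same in both genotypes. Per kb of exon, Spearman's rho between the WT and the Cxcr2-/- means was 0.971 over the 54 genes, which are no independent points, since they share libraries and near-identical sequence. Hist1h1c was first in WT, at 371 CPM per kb, and second in Cxcr2-/- mice, at 496. Hist1h4f was second in WT, at 157 CPM per kb, and first in Cxcr2-/- mice, at 529. Hist1h1e, Hist1h4k and Hist1h2bl followed in WT, at 141, 90.3 and 82.1 CPM per kb. Hist1h2bc moved from rank 20 to rank 33 and Hist1h4i from rank 11 to rank 21. Such levels depend on the length of the GENCODE M21 model, which for genes such as Hist1h1d runs far past the stem-loop.

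**Figure D4:**
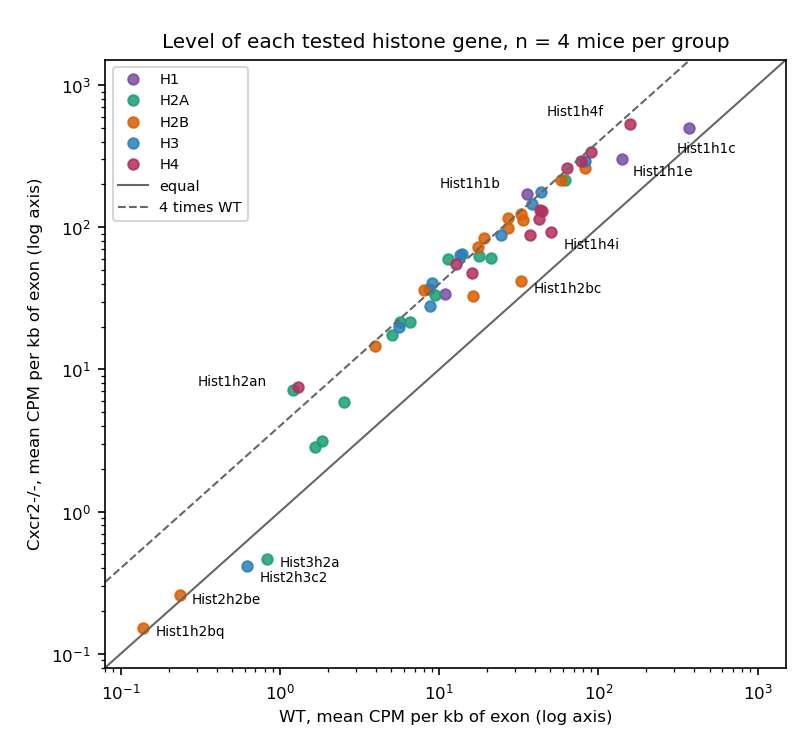
Mean level of each of the 54 histone genes tested in CPM per kb of exon, WT on the horizontal and Cxcr2-/- on the vertical axis, both on a log scale, n = 4 mice per group, coloured by class. The solid line marks equal levels and the dashed line a level 4 times that of WT. Most genes lie between the lines and close to the dashed one, and Hist1h1c, Hist1h2bc and a few genes of low level lie near the solid line.

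Grouped by their gene models, most genes of each group rose. The 17 tested genes whose model ends within 100 bases of the stem-loop all rose (median log2 fold change 1.89). Of the 19 whose model runs on past it, 16 rose and 1 fell (median 1.61), and this group holds Hist1h1c, Hist1h1e, Hist1h2be, Hist1h4i and Hist3h2a. Of the 18 without a stem-loop in the model, 14 rose (median 1.81). The 39 tested genes with at least 50% of their 150-base windows to themselves had a median of 1.83, and the 15 others one of 1.81. By place, 44 of the 47 tested genes of the Hist1 cluster and 2 of the 5 of Hist2 rose, the latter Hist2h4 and Hist2h2ac.

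The medians can also be set by promoter motif. The 6 tested H2A genes with an octamer had a median log2 fold change of 1.75 and the 7 without one of 1.8. In H2B both medians, over 5 and 7 genes, were 1.89. No test was made on these subsets.

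The 13 histone genes not tested had at most 17 counts in any library. Of these, 6 were at 0 in all 8 libraries, which are Hist1h2aa, Hist2h2aa1, Hist2h2aa2, Hist2h2bb, Hist2h3b and Hist2h3c1. For 5 of the 6, all but Hist1h2aa, every 150-base window also occurs in a transcript of another gene. A count of 0 thus says nothing of the level of these genes. On the same strand, Hist2h2aa1 and Hist2h3c1 overlap exons of Gm20634, and Hist2h2bb those of Gm42743. There a shared window can be the same place in the genome and not a second copy. For Hist1h2aa, a count of 0 allows up to 3 counts per library, by counting error only. Hist1h2ao and Hist1h2ap had at most 3 counts in any library, with 8.5% and 9.0% of their windows to themselves. The remaining genes, Hist1h1t, Hist1h2br, Hist1h4m and Hist3h2ba, had a few counts in most libraries. Hist1h2ba, the testis form of H2B, had no count in the WT and at most 7 counts in the Cxcr2-/- libraries.

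The genes best known for histone mRNA itself, Slbp and Npat, did not pass the test. Of 20 genes for histone RNA transcription and processing, all tested, 8 rose and none fell by the edgeR rule (median log2 fold change 0.20). Slbp, the stem-loop binding protein, averaged 43.6 ± 2.22 CPM in WT and 38.8 ± 3.18 CPM in Cxcr2-/- mice (edgeR adjusted p = 0.142). Npat, the coactivator of histone transcription, was at 9.82 and 9.45 CPM (log2 fold change -0.06), and Upf1, needed for histone mRNA decay, at 110 and 104 CPM (log2 fold change -0.08). Ccne1 and Cdk2, cyclin E1 and its kinase, which phosphorylate Npat, rose with log2 fold changes of 1.95 and 1.09. Ccne1 went from 1.13 ± 0.253 to 4.39 ± 1.16 CPM. Ccne2, the gene of cyclin E2, was at 6.65 ± 1.04 and 6.98 ± 2.58 CPM (log2 fold change 0.07) and was not called. Lsm11, a part of the U7 particle that cuts histone pre-mRNA, rose with a log2 fold change of 0.62, while its partner Lsm10 was at -0.39 and under the fold threshold. The cap-binding genes Ncbp1 and Ncbp2 rose with 0.99 and 0.67. With upper-quartile normalization 5 of the 20 rose.

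Among 11 histone variants, 10 were tested, 4 rose and 1 fell (median log2 fold change 0.57). H2afx, the variant phosphorylated at DNA breaks, whose mRNA also has a stem-loop form, rose most, from 19.9 ± 2.49 to 71.8 ± 12.2 CPM (log2 fold change 1.85, SE 0.13). H2afz, H2afv and Cenpa rose with log2 fold changes of 0.88, 0.66 and 0.60. The variants with the most reads, H3f3b and H3f3a, both of which encode H3.3, did not rise. H3f3b fell by 0.62 on the log2 scale, from 821 ± 47.8 to 533 ± 6.25 CPM (edgeR adjusted p = 1.41e-04), and H3f3a was at 345 ± 47.1 and 362 ± 22.1 CPM (log2 fold change 0.07, and -0.05 with upper-quartile normalization). The count of variants that rose was 2 without Cxcr2-/- mouse 3 and 2 with upper-quartile normalization.

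Of 20 histone chaperone genes, 7 rose and none fell (median log2 fold change 0.18). The largest rise was that of Chaf1a, a subunit of the factor that puts H3 and H4 on newly made DNA, with a log2 fold change of 1.91, and Asf1b, which hands H3 and H4 to it, rose with 1.76. Ubn1 and Atrx, the chaperone genes with the most reads, had log2 fold changes of -0.38 and -0.09 and were not called. Hira and Hjurp rose with log2 fold changes of 0.63 and 1.04. Chaf1b, Nasp and Tonsl, at 0.17, 0.2 and -0.19, were not called. DNA replication genes rose in 27 of 35 (median log2 fold change 1.23), with Gins1, a part of the replicative helicase, at 2.35. Mcm2, which rose with a log2 fold change of 1.51, is counted in both the chaperone and the replication list. Pcna and Mcm4, the replication genes with the most reads in WT mice, were not called. Pcna, the sliding clamp, was at 57.5 ± 2.48 and 42.7 ± 12.9 CPM (log2 fold change -0.43, edgeR adjusted p = 0.0584), and Mcm4 had a log2 fold change of 0.18. Without Cxcr2-/- mouse 4, Pcna was called lower (log2 fold change -0.60). All 20 mitosis genes rose (median log2 fold change 2.02), with Mki67 at 1.41, Top2a at 1.91 and Ube2c at 2.56. The median of the histone genes, 1.82, lay between those of the replication and the mitosis list.

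**Figure D5:**
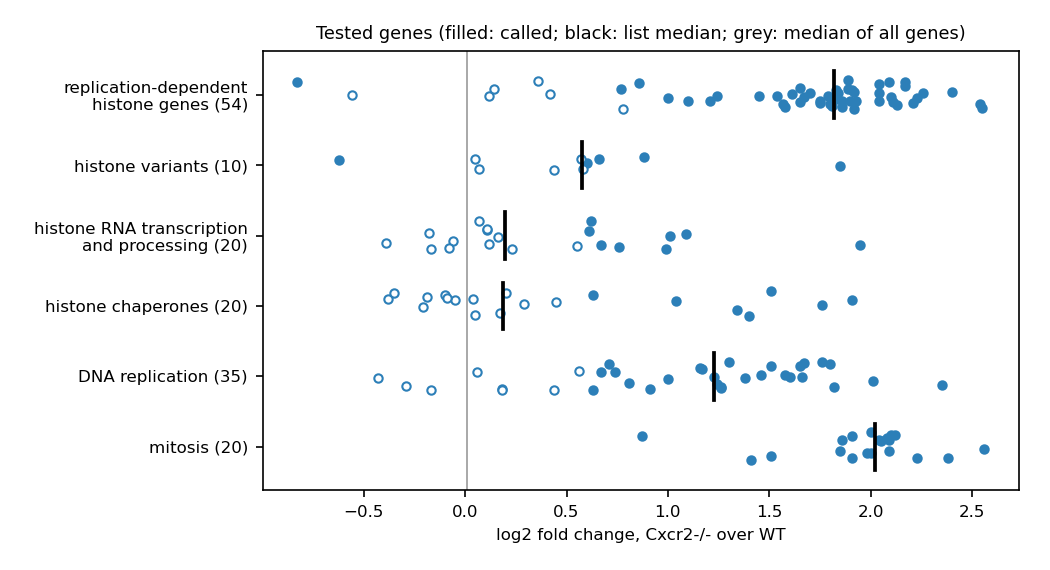
Log2 fold change, Cxcr2-/- over WT, of the tested genes of the histone list and of 5 comparison lists (number tested in brackets), 1 point per gene, spread vertically only to keep points apart. Filled points are called genes, black bars the list medians, which go from 0.18 for chaperones to 2.02 for mitosis, and the grey line the median of all genes tested, 0.01. Mcm2 is drawn in both the chaperone and the DNA replication list.

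Among the Cxcr2-/- mice, the mitosis and replication lists were not in the order of the histone genes. The summed CPM of the mitosis genes was 1377, 1529, 1430 and 1365 in Cxcr2-/- mice 1 to 4, highest in mouse 2, in which histone RNA was lowest. That of the replication genes was 461, 469, 604 and 678, highest in mouse 4. In WT mice 1 to 4 the mitosis genes summed to 409, 458, 462 and 407 CPM and the replication genes to 310, 313, 317 and 291 CPM. Both were highest in mouse 3 and lowest in mouse 4, as was the summed CPM of the histone genes.

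Markers of neutrophils and of other cells were measured beside these results. Of 14 neutrophil markers, 12 were higher and 1 was lower in Cxcr2-/- libraries, with a sum of 50483 to 68752 CPM in WT and 113757 to 149155 CPM in Cxcr2-/- mice. The marker that fell was Csf3r, from 6960 ± 462 to 3334 ± 147 CPM (log2 fold change -1.06). The 3 primary granule genes Elane, Mpo and Prtn3, which are made in early precursors, rose with log2 fold changes of 5.15, 4.58 and 4.86. Elane was at 0.289 to 2.11 CPM in the WT mice and at 12.0, 14.5, 55.5 and 93.2 CPM in Cxcr2-/- mice 1 to 4, so that mice 3 and 4 were well above mice 1 and 2. Of 8 B cell markers 6 fell, and they summed to 73.9 to 158 CPM in WT and 31.3 to 73.6 CPM in Cxcr2-/- mice. Among 5 plasma cell markers, 4 were tested, Jchain rose and Prdm1 fell, with sums of 92.9 to 111 and 141 to 159 CPM, mostly from Xbp1. T cell markers summed to 97.6 to 118 and 90.9 to 139 CPM, nearly all from Cd3d, with Cd3e and Trac near 0, and 1 of the 4 tested fell. Of 5 NK cell markers Nkg7 alone rose, and the sums were 0.868 to 8.34 and 4.45 to 11.4 CPM. Macrophage and monocyte markers, of which 1 rose and 2 fell of 10, summed to 750 to 874 and 881 to 1007 CPM, mostly from Csf1r, which fell, and Ly6c2, which rose.

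The remaining lists were those of other blood cells. Of the dendritic cell markers 1 of 4 tested fell, with sums of 7.12 to 31.4 CPM in WT and 4.57 to 9.09 CPM in Cxcr2-/- mice. Erythroid markers, whose cells also divide in the spleen, summed to 2.92 to 6.81 and 3.38 to 14.6 CPM, with Klf1 near 0 and none of 6 tested called. Megakaryocyte markers summed to 5.88 to 7.88 and 3.90 to 6.29 CPM, and none of 2 tested was called. For eosinophils, basophils and mast cells the sums were 38.8 to 56.0 and 34.9 to 57.0 CPM, mostly from Siglecf, which was not called. Of the 3 genes tested, Prg2 and Epx, which encode granule proteins of eosinophils, rose with log2 fold changes of 2.87 and 2.78, from 1.21 ± 1.72 to 8.74 ± 6.13 CPM and from 0.332 ± 0.373 to 2.25 ± 2.02 CPM. Stem and progenitor cell markers summed to 16.9 to 39.4 and 21.1 to 39 CPM, mostly from Kit, with none of 3 tested called. The part of precursors, of B cells and of other cells in the difference of histone RNA was not tested.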

How the data were processed

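The data are RNA-seq libraries of sorted spleen neutrophils from 4 WT and 4 Cxcr2-/- mice, grouped by the genotype and numbered as in the labels. Equal numbers do not mark the same animal. The authors trimmed the reads to a minimum length of 120 bases and used STAR (mm10) and HTSeq. What they deposited are whole-number counts per gene without normalization. The strand setting and the annotation release of the counting are not given in the sources used here. None of the 67 gene identifiers carries the GENCODE M21 version number, so gene lengths and overlaps of M21 may differ from those used in counting.

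Counts were analysed in R 4.3.3 with edgeR 4.0.16 (TMM normalization, filterByExpr, quasi-likelihood test, Benjamini-Hochberg adjustment over 16778 genes). Calls needed an adjusted p below 0.05 together with a change of 1.5-fold or more, the limits of the study's methods. DESeq2 1.42.0 was an alternative. Other alternatives were RLE and upper-quartile normalization, no filter, at least 10 counts in every library, a replicate block, other fold limits and each library left out. Subsets of genes with windows of their own and without a shared exon were added after the data were seen. The edgeR steps were tested on simulated data. Pairs of replicates differed by more than sampling noise. Total counts were 34220182 to 46233555 per library. The standard errors of the fit hold the spread between mice as well as the counting noise.

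The histone genes and the lists were chosen with earlier results of these data known. Named genes are, per class, the 3 with the highest CPM per kb, the largest rise and the largest fall, and those called against the rest of the class. In the comparison lists they are the 2 with the highest CPM and the 1 with the largest change. Other genes were named after their values were seen.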

Additional observations from a re-analysis of the deposited data

Results flagged for a closer look

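In groups of 4 mice, the gap of the highest or lowest mouse to the next was compared with the range of the group for the named genes and the class sums. Of 86 groups looked at, 5 had a gap above Dixon's 95% critical value, and chance alone gives about 1 in 20. WT mouse 2 was low for Hist1h1c, at 492 CPM against 601 to 613 CPM in the other WT mice. WT mouse 4 was low for Hist1h3i, at 13.8 CPM against 18.7 to 19.7 CPM, and for Top2a, at 47.4 CPM against 58.7 to 60.1 CPM. Cxcr2-/- mouse 1 was low for H3f3a, at 329 CPM against 370 to 375 CPM, and Cxcr2-/- mouse 2 was high for Top2a, at 245 CPM against 197 to 205 CPM.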

How the results depend on the processing

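The same 47 histone genes rose under RLE and upper-quartile normalization, DESeq2, no filter, at least 10 counts in every library and in each of the 8 fits without 1 library. The last gave 47 to 48 genes, and no filter gave 48 with Hist1h2ba. The median log2 fold change of the histone genes was 1.71 to 1.89 without 1 library, and 1.70 with upper-quartile normalization, which moved the median of all genes to -0.11. With at least 2-fold, 0 histone genes fell, and 0 fell among those that share no exon on the same strand. Of the genes with at least 50% of their windows to themselves, 35 of 39 rose. Of the variants, 2 rose with upper-quartile normalization, 1 rose and 0 fell with at least 2-fold, and 2 to 5 rose without 1 library, 2 of them without Cxcr2-/- mouse 3. For histone RNA processing, 5 rose with upper-quartile normalization and 3 with at least 2-fold, and 1 fell with no fold threshold, as did 2 chaperones. Of the replication genes, 0 to 1 fell without 1 library, Pcna without Cxcr2-/- mouse 4. H3f3a turned to -0.05 with upper-quartile normalization and -0.03 without WT mouse 2. The causes were not tested. The ratio of the summed CPM over all 67 genes was 2.37 with scaling by total counts and 2.39 to 2.64 without 1 library. Deviations of mice of equal number had correlations of both signs (0.15, -0.187, 0.245 and -0.308). Those of unequal number went from -0.27 to 0.303. So few mice cannot show whether equal numbers share a batch. With the replicate block 47 histone genes rose and 1 fell. A window search in the genome was not run, because no genome sequence was at hand. Genes under 1 CPM, such as Hist2h2be, are limited by depth. Hist1h2bq is also limited by its near-identical copies.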

Other observations

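Hist1h2al, annotated in GENCODE M21 as a processed pseudogene and so not among the 67 genes, carried more reads than any of the 18 H2A genes in each of the 8 libraries. These are reads, not levels per length. It was at 79.6, 63.8, 76.1 and 60.6 CPM in WT mice 1 to 4 and at 189, 154, 165 and 156 CPM in Cxcr2-/- mice 1 to 4. All 4 Cxcr2-/- mice were above all WT mice, a log2 fold change of 1.24 (SE 0.11, edgeR adjusted p = 3.02e-06). Hist1h2aj and Hist3h2bb-ps, the other pseudogenes with a histone symbol, had at most 2 and 10 counts in any library.

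The Hist1 cluster also holds 49 protein-coding genes that are no replication-dependent histone genes, of which 4 were tested. They were looked at after the data were seen. Prss16, which encodes a serine protease of the thymus, rose from 7.04 ± 0.765 to 18.6 ± 2.80 CPM (SD, n = 4 each), a log2 fold change of 1.40 with an edgeR adjusted p of 6.32e-06. Zfp322a, Abt1 and Hfe, the gene of the iron regulator mutated in haemochromatosis, had log2 fold changes of 0.21, -0.24 and 0.22 and were not called.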
